A study of Mus musculus with 4 samples.

Results

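The cell cycle and DNA replication genes described here are 35 genes, taken by symbol from a table of 22632 genes measured by RNA-seq in mouse small intestinal organoids. They fall into 9 genes of the G1 phase, 13 of the S phase and 13 of mitosis. The table holds 4 libraries, 1 for each of 4 groups, all harvested 24 hours after whole crypts had been seeded in Matrigel with Egf, Noggin and Rsp1. Organoids are epithelial cultures that grow from isolated crypts. The Yap+/- group (Yap+/fl;VillinCre) carried 1 intact copy of Yap1 and served as the control for the Yap-/- group (Yapfl/fl;VillinCre), in which Cre driven by the Villin promoter deletes the floxed gene in the intestinal epithelium. The YapTg group carried a wild-type Yap transgene whose expression needs doxycycline and a reverse tetracycline transactivator that is itself switched on by Cre, and it was grown without or with doxycycline from seeding onward. The labels name no Cre driver for the YapTg line and no culture that had doxycycline but no transgene. The Yap lines therefore share VillinCre, and drug and transgene cannot be told apart in the induced library.

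No group had a replicate. Differences below consequently have no test and no replicate check, and each 95% interval covers counting error only. It is too narrow where PCR copies were counted, since these are not independent molecules. Values are in RPKM, a read number divided by the length of the gene and the size of the library. That puts genes and libraries on a common scale, but small differences between libraries also rest on how the libraries are scaled. Library totals recovered from the values ran from 44934170 to 75269003 reads. The reads recovered for each of the 35 genes ran from 593 to 59540 in a library. For Ccnd2, Ccnd3, Cdk6 and Rrm1 they share a common factor in all 4 libraries, so they are probably multiples of the true reads. Their intervals are then too narrow, and the upper end of the range, from Ccnd2, is too high. Yap1 stood at 16.7 RPKM in the Yap+/- library, 3.35 RPKM in the Yap-/- library, 25.1 RPKM in the uninduced and 1039 RPKM in the induced YapTg library, in the order the labels give. The labelled tissue was checked against its markers. All 9 epithelial markers lay between 41.9 and 2011 RPKM, while 12 stromal markers summed to between 0.197 and 0.359 RPKM per library, with 6 to 8 of them at 0. The 11 markers of immune and red blood cells summed to between 1.79 and 4.06 RPKM. In such bulk libraries, fewer cells of a type and less RNA per cell cannot be told apart.

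A cell enters the cycle from G1 when D-type cyclins bind the kinases Cdk4 and Cdk6 and phosphorylate the retinoblastoma proteins, which frees E2F factors to switch on the E cyclins and the genes of DNA replication. In S phase the Mcm helicase, loaded by Cdc6 and Cdt1, opens the DNA for copying, and in G2 and mitosis cyclins A and B with Cdk1, followed by the Aurora and Polo kinases, drive chromosome segregation. In the small intestine, division is held to the crypt, in its base stem cells and in the transit-amplifying cells above them, while the enterocytes of the villus have left the cycle.

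Genes of S phase and of mitosis are known for different promoter elements, so 7 promoters are shown before the levels. RefSeq promoters (build GRCm38.p6) were at hand for 28 of the 35 genes. Their 250 bases before the start site were searched on both strands. Ccnd1, Ccnd2, Ccne2, Mcm4, Foxm1, Ccna2 and Aurkb had no promoter entry and were not searched. The motifs were the E2F words TTTCCCGC, TTTCGCGC, TTTGCCGC and TTTGGCGC, the cell cycle homology region (CHR) as TTTGAA or TTCGAA, and CCAAT, the box read by the factor NF-Y. In the stretches below, written 5′ to 3′ on the strand of the gene, capitals mark these words or their reverse complements, such as ATTGG for CCAAT. The first 4 belong to mitosis genes, Cdk1 (chr10:69352913-69353047, minus strand), Ccnb1 (chr13:100786487-100786621, minus strand), Top2a (chr11:99024190-99024349, minus strand) and Mki67 (chr7:135716380-135716579, minus strand).
Cdk1: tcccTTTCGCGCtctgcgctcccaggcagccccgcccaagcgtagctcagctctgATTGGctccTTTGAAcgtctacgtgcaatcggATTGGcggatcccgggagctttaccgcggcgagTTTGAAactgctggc
Ccnb1: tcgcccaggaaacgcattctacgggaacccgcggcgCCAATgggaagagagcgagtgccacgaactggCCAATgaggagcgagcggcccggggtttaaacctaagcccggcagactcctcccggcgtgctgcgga
Top2a: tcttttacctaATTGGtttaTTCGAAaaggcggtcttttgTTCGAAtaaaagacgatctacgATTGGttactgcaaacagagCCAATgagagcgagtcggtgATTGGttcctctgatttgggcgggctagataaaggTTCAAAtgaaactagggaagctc
Mki67: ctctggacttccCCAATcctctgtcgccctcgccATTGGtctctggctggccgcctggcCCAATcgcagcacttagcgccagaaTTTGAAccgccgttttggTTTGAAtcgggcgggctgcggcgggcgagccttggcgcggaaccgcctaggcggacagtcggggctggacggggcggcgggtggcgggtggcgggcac
The other 3 belong to S phase genes, Mcm6 (chr1:128359706-128359840, minus strand), Mcm5 (chr8:75109349-75109508, plus strand) and Cdc6 (chr11:98907991-98908150, plus strand).
Mcm6: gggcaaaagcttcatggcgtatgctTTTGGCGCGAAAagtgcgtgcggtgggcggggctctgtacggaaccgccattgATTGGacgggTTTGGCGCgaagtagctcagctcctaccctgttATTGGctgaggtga
Mcm5: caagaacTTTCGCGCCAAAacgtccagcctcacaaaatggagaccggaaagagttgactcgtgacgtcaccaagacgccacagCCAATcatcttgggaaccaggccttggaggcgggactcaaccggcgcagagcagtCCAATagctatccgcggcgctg
Cdc6: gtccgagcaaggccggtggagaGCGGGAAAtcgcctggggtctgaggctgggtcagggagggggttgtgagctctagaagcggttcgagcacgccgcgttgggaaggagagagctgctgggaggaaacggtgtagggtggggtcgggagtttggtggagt
In the Mcm6 and Mcm5 stretches a pair of E2F words overlap and form 1 run of capitals.

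An E2F word was present in 4 of 12 S phase promoters (33.3%), those of Cdc6, Mcm5, Mcm6 and Mcm7, in 1 of 10 mitosis promoters, that of Cdk1, and in 0 of 6 G1 promoters. Over all 27025 genes of the promoter table the share was 2.16%. CCAAT occurred in 9 of 10 mitosis promoters and 8 of 12 S phase promoters, against 37.5% of all genes, and 8 of the 10 mitosis promoters held it at least 2 times, against 11.5% of all genes. Neighbouring CCAAT words in mitosis promoters started a median of 32 bases apart over 14 gaps, with a range from 20 to 128. In S phase promoters the 6 gaps ran from 40 to 55 bases. The CHR word was found in 4 of 10 mitosis promoters (40.0%) and in 2 of 12 S phase promoters, against 19.6% of all genes. Matches for the DNA partners of YAP were few in the 28 promoters searched, which do not include those of Ccnd1 and Ccnd2. The TEAD word GGAATG lay in the promoters of Ccnd3 and Mcm3 alone, 2 of 28 (7.14%) against 14.4% of all genes, and the AP-1 words TGACTCA and TGAGTCA in 0 of 28 against 5.16%. A match describes these letters in this window and is not shown to be a bound site.

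Every one of the 35 genes was expressed at 1 RPKM or more in all 4 libraries, and the YapTg line had the higher levels. The uninduced YapTg library was the highest of the 4 for 25 genes, 11 of them S phase and 12 of them mitosis genes. The induced library was the highest for the other 10, of which 7 were G1 genes. Neither Yap line was highest for any gene. The lowest value fell in the Yap+/- library for 22 genes, in the Yap-/- library for 10 and in the induced library for 3. This ranking was not made over all genes. Of the 10883 genes at 1 RPKM or more in Yap+/- or uninduced YapTg organoids, 65.6% were lower in Yap+/-.

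Summed over the 35 genes, the level was 589 RPKM in Yap+/-, 630 RPKM in Yap-/-, 821 RPKM in uninduced YapTg and 800 RPKM in induced YapTg organoids. The G1 genes summed to 157, 174, 197 and 241 RPKM in that order, so their sum was highest with induction. The S phase genes summed to 206, 224, 298 and 274 RPKM, and the mitosis genes to 226, 232, 326 and 285 RPKM, both highest without induction. Both YapTg libraries lay above both Yap libraries for 30 of the 35 genes, against 40.7% of all 11285 genes at 1 RPKM or more in some library. The 5 exceptions were Cdk4, Mcm7, Pcna, Tk1 and Cenpa.

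**Figure D1:**
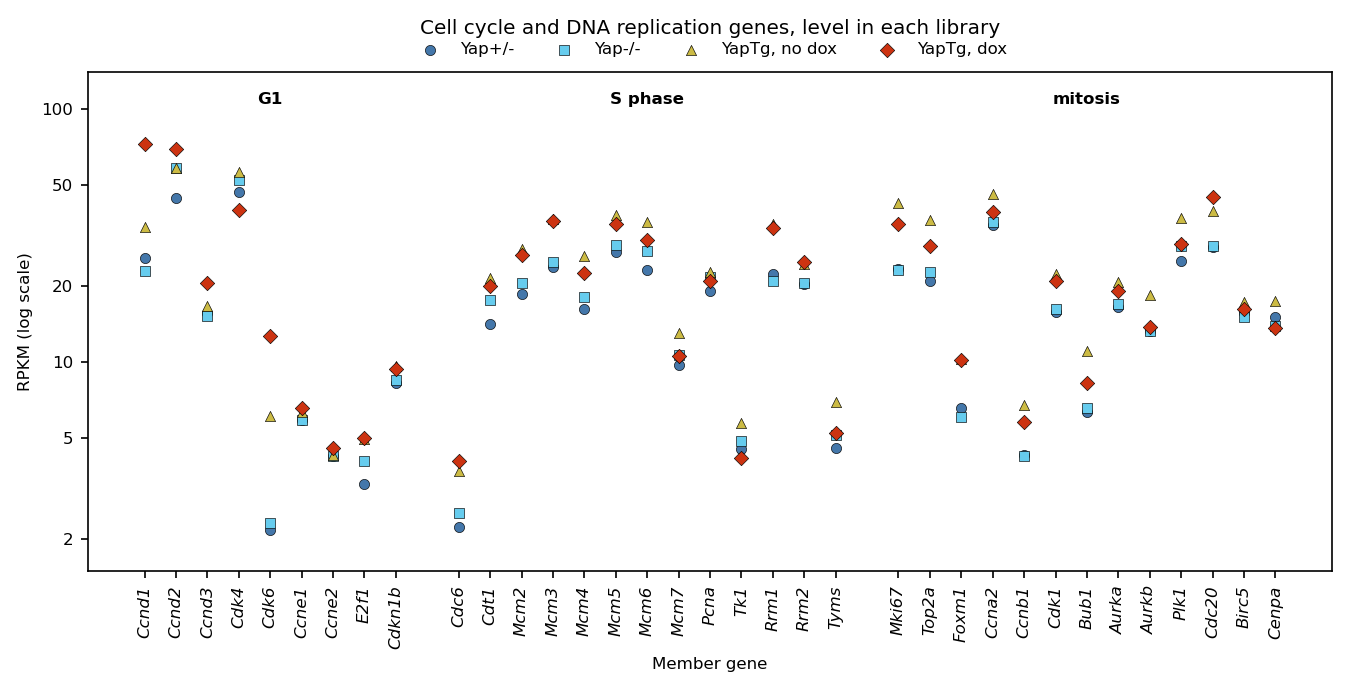
Level of each of the 35 genes in the 4 libraries, in RPKM on a log scale, with 1 point per library and the genes ordered by phase. The triangles of the uninduced YapTg library top most S phase and mitosis genes, and the diamonds of the induced library top most G1 genes, with Ccnd1 (72.7 RPKM) and Cdk6 (12.7 RPKM) farthest from the other libraries.

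With induction, most G1 genes had higher values where most S phase and mitosis genes had lower ones. Among the G1 genes the higher values beyond counting error were those of the D-type cyclins and Cdk6, while Cdk4 was lower. Ccnd1, which encodes cyclin D1 (ENSMUSG00000070348), was at 25.8 RPKM in Yap+/-, 22.9 RPKM in Yap-/-, 34.2 RPKM in uninduced YapTg and 72.7 RPKM in induced YapTg organoids. It was 2.13-fold higher with induction (95% interval 2.04 to 2.22). The induced library stands above the other 3, which range from 22.9 to 34.2 RPKM. Ccnd1 was the 1 gene of the 35 at least 2-fold higher on the log2(RPKM + 1) scale, which understates differences of low genes, and 0 were at least 2-fold lower. Over the 11108 genes at the floor of 1 RPKM the shares were 5.85% and 5.8%.

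Ccnd2, the gene of cyclin D2, was at 44.6, 58.4, 58.4 and 69.4 RPKM in Yap+/-, Yap-/-, uninduced and induced organoids. It was 1.19-fold higher with induction (95% interval 1.17 to 1.21). Ccnd3, the gene of cyclin D3, was at 15.6, 15.2, 16.7 and 20.6 RPKM, 1.23-fold higher with induction (95% interval 1.18 to 1.28). The intervals of Ccnd2 and Ccnd3 are probably too narrow, because the recovered reads of each gene share a common factor. All 3 D-type cyclins thus had their highest level in the induced library. Their sum was 86.0 RPKM in Yap+/-, 96.5 RPKM in Yap-/-, 109 RPKM in uninduced YapTg and 163 RPKM in induced YapTg organoids. Ccnd2 made up the largest share of that sum in the first 3 libraries, between 51.8% and 60.5%. With induction Ccnd1 held 44.7% and Ccnd2 42.6%, against 31.3% and 53.4% without.

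The kinases of the D-type cyclins went in opposite directions. Cdk6 was at 2.16 RPKM in Yap+/-, 2.31 RPKM in Yap-/-, 6.12 RPKM in uninduced YapTg and 12.7 RPKM in induced YapTg organoids. It was 2.08-fold higher with induction (95% interval 1.98 to 2.19), although its log2(RPKM + 1) ratio of 0.95 fell short of the 2-fold rule. Its recovered reads also share a common factor, so this interval is probably too narrow. Cdk4 was at 47.0, 52.3, 56.3 and 40.0 RPKM in the same order and was 1.41-fold lower with induction (95% interval 1.35 to 1.47). The induced library was thus the highest of the 4 for Cdk6 and the lowest for Cdk4. Cdk4 transcripts outnumbered those of Cdk6 by 21.7 to 1 per length in Yap+/- organoids and by 22.6 to 1 in Yap-/- organoids. The ratio was 9.21 in uninduced and 3.14 in induced organoids, and the share of Cdk6 in the sum of both kinases was 9.80% and 24.2%.

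**Figure D2:**
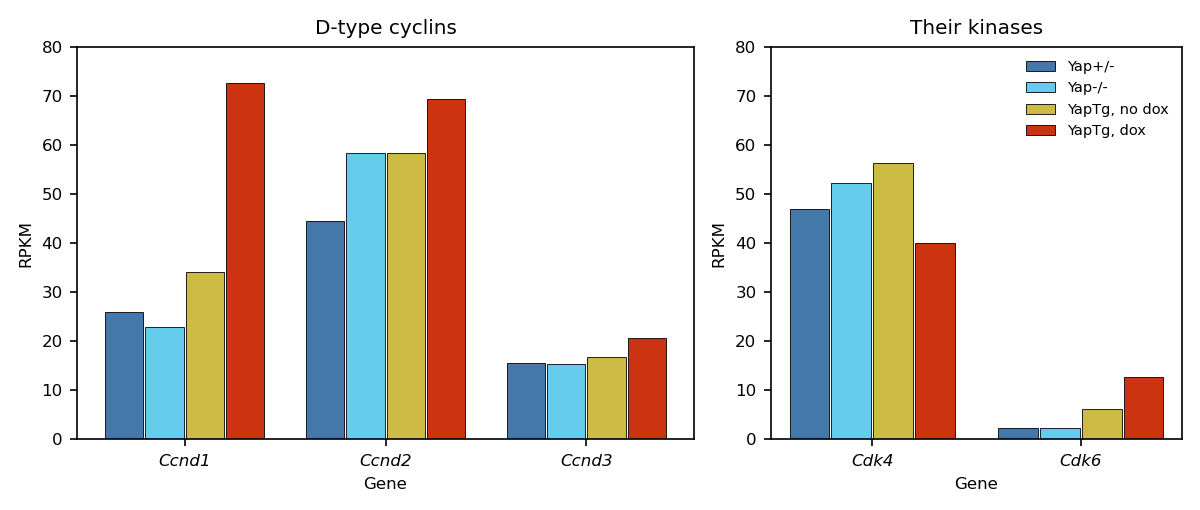
RPKM of the 3 D-type cyclin genes (left) and of the kinase genes Cdk4 and Cdk6 (right), 1 bar per library and no error bars because each group is 1 library. In the induced YapTg library Ccnd1 reaches 72.7 RPKM and Cdk6 12.7 RPKM, while Cdk4 is at 40.0 RPKM, its lowest level.

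Later G1 genes hardly differed with induction. Ccne1 and Ccne2, the genes of the E cyclins that act with Cdk2 at the entry into S phase, summed to between 10.1 and 11.2 RPKM in the 4 libraries. E2f1, an activating E2F factor, was at 4.97 RPKM without and 5.02 RPKM with doxycycline, and Cdkn1b, which encodes the kinase inhibitor p27, at 9.66 and 9.36 RPKM. The 95% intervals of these 4 genes hold a ratio of 1.

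The S phase and mitosis genes were mostly slightly lower in induced organoids. Of the 35 genes, 25 were lower and 10 higher, against 54.5% lower over all genes, and the median log2 ratio was -0.10, against -0.04 over all genes. Median-ratio scaling of the pair gave 22 lower and 13 higher. By phase, 7 of 9 G1 genes were higher (median 0.07), while 11 of 13 S phase genes (median -0.12) and 12 of 13 mitosis genes (median -0.24) were lower. At 1.25-fold on the log2(RPKM + 1) scale, a limit chosen after the values were seen, 2 genes were higher and 8 lower, against 20.2% and 25.3% of all genes. The members called lower were thus 22.9% of the 35, a share near that of all genes. At 1.5-fold on that scale, 2 genes were apart, Ccnd1 and Cdk6, against 24.4% of all genes.

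Among the S phase genes, the Mcm helicase genes Mcm2 to Mcm7 differed by log2 ratios between -0.28 (Mcm7) and -0.03 (Mcm3). Tk1, which encodes the thymidine kinase of the nucleotide salvage pathway, was at 4.55 RPKM in Yap+/-, 4.90 RPKM in Yap-/-, 5.75 RPKM in uninduced YapTg and 4.18 RPKM in induced YapTg organoids, and was 1.38-fold lower with induction (95% interval 1.24 to 1.53). Tyms, the gene of thymidylate synthase, which makes thymidylate anew, was at 4.58, 5.17, 6.93 and 5.25 RPKM, 1.32-fold lower with induction (95% interval 1.21 to 1.44). These thymidylate genes were the S phase genes farthest lower. The ribonucleotide reductase genes Rrm1 and Rrm2, which supply all 4 deoxynucleotides, differed less, with Rrm1 at 35.2 and 33.8 RPKM and Rrm2 at 24.4 and 24.9 RPKM. Cdc6 and Rrm2 were the S phase genes with higher values, and the 95% intervals of both hold 1.

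Among the mitosis genes, Aurkb, the kinase of the chromosomal passenger complex, was at 13.3 RPKM in Yap+/-, 13.2 RPKM in Yap-/-, 18.4 RPKM in uninduced YapTg and 13.8 RPKM in induced YapTg organoids. It was 1.34-fold lower with induction (95% interval 1.24 to 1.44). Bub1, a spindle checkpoint kinase, was at 6.34, 6.62, 11.1 and 8.29 RPKM and was 1.33-fold lower (95% interval 1.23 to 1.45). The uninduced library was the highest of the 4 for both genes, and in the induced library Aurkb was near the level of the Yap lines while Bub1 was above it. Top2a, the topoisomerase that untangles sister chromosomes, was at 36.5 and 28.8 RPKM, 1.27-fold lower. Cenpa, the centromeric histone, was at 17.4 and 13.6 RPKM and also 1.27-fold lower. Plk1, the Polo kinase, was at 37.0 and 29.3 RPKM. Cdc20, the activator of the anaphase-promoting complex, was the single mitosis gene with a higher value, at 39.4 RPKM without and 44.8 RPKM with induction, 1.14-fold higher (95% interval 1.07 to 1.21). Foxm1, the transcription factor of G2 and mitosis genes, stood at 10.3 and 10.2 RPKM, and the 95% interval of its ratio holds 1.

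**Figure D3:**
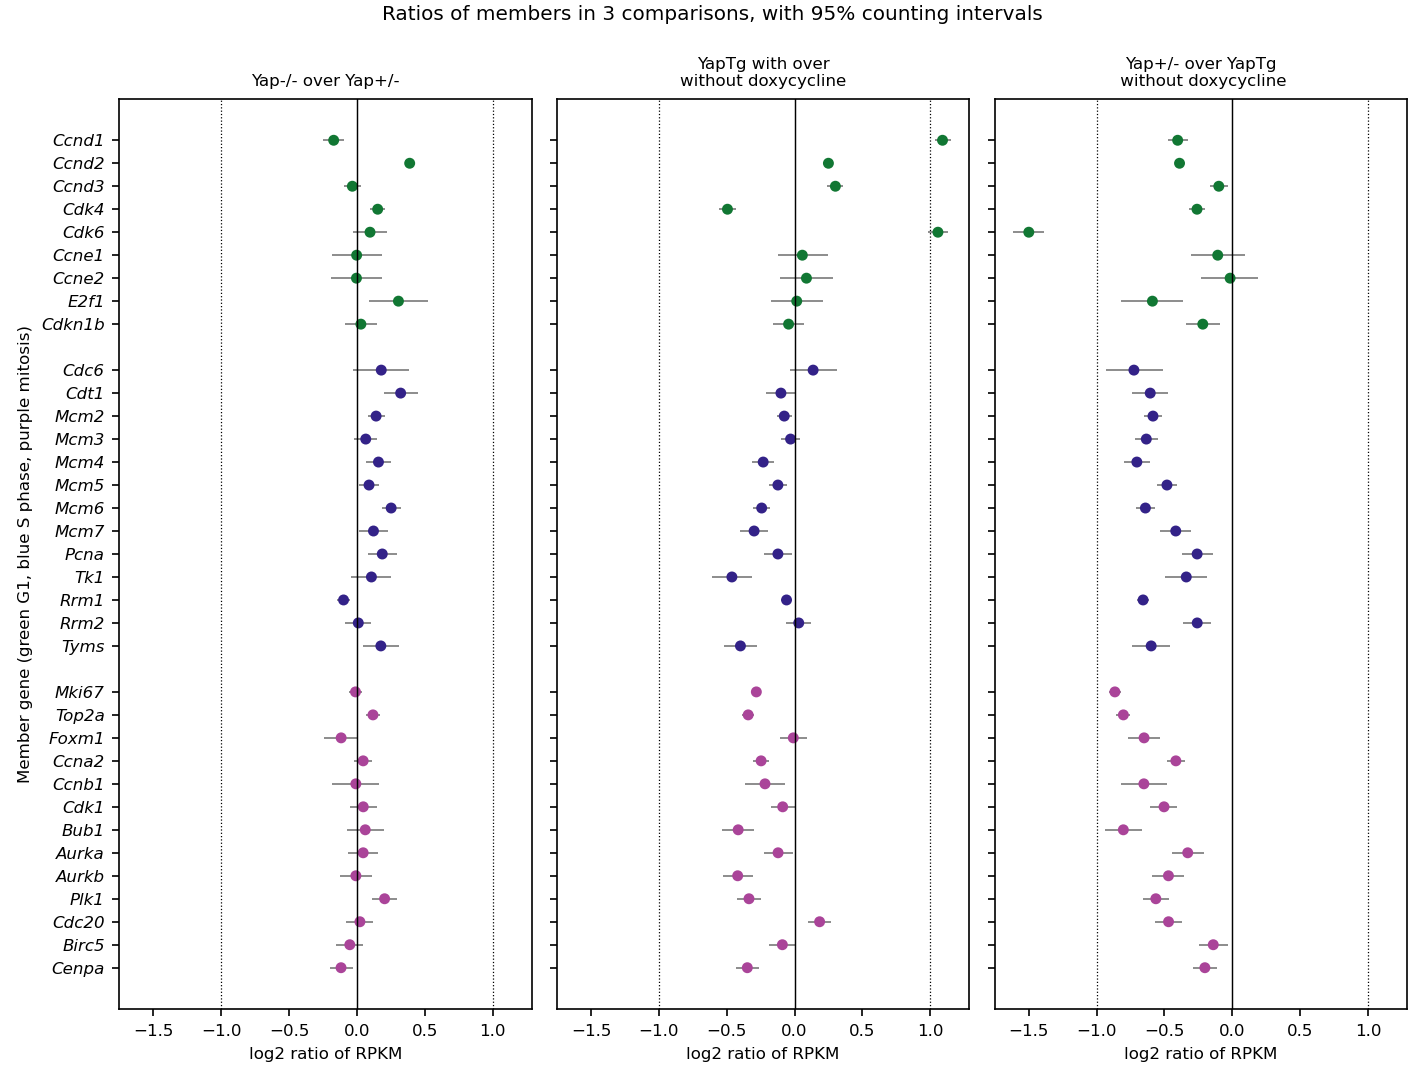
Log2 ratio of RPKM for each of the 35 genes in the 3 comparisons, with 95% counting intervals as bars, a solid line at no difference and dotted lines at 2-fold. Points lie near 0 for Yap-/- over Yap+/-, Ccnd1 and Cdk6 lie at the dotted line with induction, and all points lie below 0 for Yap+/- over uninduced YapTg.

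Between the Yap-/- and Yap+/- libraries, no gene of the 35 was 2-fold or 1.5-fold apart. The shares of all 10710 genes past the floor were 0.336% for at least 2-fold higher, 0.57% for at least 2-fold lower and 2.91% for at least 1.5-fold apart. Values were higher in Yap-/- organoids for 24 genes and lower for 11, against 65.5% higher over all genes. The median log2 ratio was 0.05, as over all genes. After median-ratio scaling the split was 18 higher and 17 lower, and after upper-quartile scaling 21 and 14, so the direction of the small differences rests on the scaling. For 19 of the 35 genes the 95% interval holds a ratio of 1, with a median interval reaching 1.07-fold to either side. That number may be too low, because some read numbers were probably recovered too high.

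On the log2(RPKM + 1) scale, Ccnd2 was the 1 gene at least 1.25-fold higher, with 0 at least 1.25-fold lower, against 5.37% and 4.08% of all genes. From the levels given above it was 1.31-fold higher in Yap-/- organoids (95% interval 1.28 to 1.34). Ccnd1 was 1.13-fold lower (95% interval 1.07 to 1.19) and had the lowest log2 ratio of the 35, -0.16. Cyclin D1 thus made up 23.8% of the D-type cyclin transcripts in Yap-/- organoids and 30.0% in Yap+/- organoids. The Yap+/- library had the lowest Ccnd2 level of the 4, while the Yap-/- and uninduced YapTg libraries both stood at 58.4 RPKM.

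S phase genes were higher in Yap-/- organoids in 12 of 13 cases, with a median log2 ratio of 0.13. Over all genes 65.5% were higher, with a median of 0.05. Cdt1, which loads the Mcm helicase, was at 14.1 RPKM in Yap+/-, 17.7 RPKM in Yap-/-, 21.5 RPKM in uninduced YapTg and 20.04 RPKM in induced YapTg organoids. Its RPKM ratio was 1.25 without Yap (95% interval 1.15 to 1.36), which falls short of the 1.25-fold limit once 1 RPKM is added to each value. Mcm6 was at 23.1, 27.5, 35.9 and 30.4 RPKM, 1.19-fold higher without Yap (95% interval 1.14 to 1.25). In both genes Yap+/- was the lowest library. All 6 Mcm helicase genes were higher, by log2 ratios from 0.06 to 0.24, and Rrm1 was the exception among the S phase genes, at 22.3 and 20.8 RPKM. The E2F gene E2f1 was at 3.30 and 4.08 RPKM, 1.24-fold higher (95% interval 1.07 to 1.44). Mitosis genes were split 7 higher to 6 lower with a median of 0.02. Mki67, the proliferation antigen Ki-67, was at 23.4 and 23.2 RPKM, and Ccnb1, the gene of cyclin B1, at 4.30 and 4.27 RPKM.

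The pair of reference libraries, Yap+/- and uninduced YapTg, belong to different lines and differed in these genes without full loss or induction of Yap. All 35 genes were lower in the Yap+/- library, against 65.6% of all 10883 genes at the floor, with a median log2 ratio of -0.47 against -0.11 over all genes. The medians were -0.26 for G1, -0.54 for S phase and -0.48 for mitosis genes. With median-ratio or upper-quartile scaling, which bring the median of all genes near 0, the split was 32 lower to 3 higher, the 3 being Ccnd3, Ccne1 and Ccne2. On the log2(RPKM + 1) scale, 24 genes were at least 1.25-fold lower and 0 higher, against 22.0% and 8.71% of all genes. At 1.5-fold on that scale 8 were apart, against 8.1% of all genes: Cdk6, Mcm3, Mcm4, Mcm6, Rrm1, Mki67, Top2a and Bub1. By the RPKM ratio, without the pseudocount, Cdc6 (1.65), Ccnb1 (1.57), Foxm1 (1.57), Cdt1 (1.52), Tyms (1.51) and E2f1 (1.50) also reached 1.5-fold. At 2-fold on the same scale, 1 gene was lower and 0 higher, against 0.726% and 1.11%. This pair shares the Yap+/- library with the comparison of Yap loss and the uninduced library with that of induction, so the 3 comparisons are not independent. Genotype, line and culture cannot be told apart in this pair.

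Cdk6 was the gene past 2-fold, 2.83-fold lower in Yap+/- than in uninduced YapTg organoids (95% interval 2.62 to 3.06). Mki67, at 23.4 and 42.6 RPKM, was 1.82-fold lower in Yap+/- organoids (95% interval 1.77 to 1.88). Top2a, at 20.9 and 36.5 RPKM, was 1.74-fold lower (95% interval 1.68 to 1.81). For Mki67 and Top2a the Yap lines lay together, with Yap-/- at 23.2 and 22.7 RPKM, and both YapTg libraries stood above them. The Mcm helicase genes were lower in Yap+/- by log2 ratios from -0.67 to -0.38. Mcm7 was the lowest of the 6 in every library, between 9.76 and 13.0 RPKM, and Mcm5 the highest in 3 libraries, with Mcm3 ahead in the induced one. By the recovered reads, the 95% intervals of the E cyclin genes, and of no other gene of the 35, hold 1. The Ccnd3 interval, 0.892 to 0.977, ends near 1. Like that of Cdk6 it is probably too narrow, because the recovered reads of both genes share a common factor. Whether the Ccnd3 interval holds 1 can therefore not be told.

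Other mitosis genes differed less between the lines. Ccna2, the gene of cyclin A2, was at 34.7 RPKM in Yap+/-, 35.8 RPKM in Yap-/-, 46.3 RPKM in uninduced YapTg and 39.0 RPKM in induced YapTg organoids. Cdk1, its kinase, was at 15.8, 16.3, 22.3 and 21.01 RPKM, and the mitotic kinase gene Aurka at 16.5, 17.0, 20.7 and 19.04 RPKM. Birc5, which encodes survivin, a partner of Aurora B, ranged only from 15.1 to 17.2 RPKM. The S phase clamp gene Pcna ranged from 19.1 to 22.8 RPKM and was the highest in uninduced organoids.

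Beyond the 35, 121 further cell cycle genes were listed in 4 groups. With induction 54.5% of all genes at the floor were lower (median -0.04). In the group for origin firing and DNA synthesis, 38 of 45 genes were lower (median -0.22). In that for G2, spindle and cytokinesis 37 of 42 were lower (median -0.26). The 5 genes of that group with higher values were Anln, Ect2, Mybl2, Kif23 and Prc1. Anln, the gene of anillin, which organises the contractile ring, was at 5.44 RPKM in Yap+/-, 5.69 RPKM in Yap-/-, 9.37 RPKM in uninduced YapTg and 31.3 RPKM in induced YapTg organoids. It was 3.34-fold higher with induction (95% interval 3.19 to 3.49). Ect2, the exchange factor that activates RhoA at the furrow, was at 18.3 and 32.1 RPKM, 1.75-fold higher. Kif23, the kinesin of centralspindlin, was at 17.7 and 24.6 RPKM, 1.39-fold higher with induction. In Yap+/- and Yap-/- organoids Kif23 was at 10.5 and 7.79 RPKM, 1.34-fold lower without Yap (95% interval 1.26 to 1.42). Mybl2, a transcription factor of mitosis genes, was at 6.08 and 9.31 RPKM with induction, and Prc1, which bundles microtubules of the central spindle, at 21.9 and 24.0 RPKM. Other genes of this machinery had lower values, among them Racgap1, the partner of Kif23 in centralspindlin, at 10.02 and 9.11 RPKM, and Incenp, the scaffold of the Aurora B complex, at 25.1 and 20.97 RPKM. Mybl2, Prc1, Racgap1 and Incenp were named after their values were seen.

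The genes that hold cells back from division were divided with induction. In the group of kinase inhibitors and cell cycle exit, 14 genes passed the floor. With induction 3 of them were higher by 2-fold or more and 0 lower by as much, against 5.85% and 5.8% of all genes. By any amount 7 were higher and 7 lower, against 54.5% lower over all genes. Cdkn1c, the gene of the inhibitor p57, was at 3.09 RPKM in Yap+/-, 4.46 RPKM in Yap-/-, 1.67 RPKM in uninduced YapTg and 24.2 RPKM in induced YapTg organoids. It was 14.5-fold higher with induction (95% interval 11.5 to 18.7). Klf4, a transcription factor of post-mitotic epithelium, was 5.54-fold higher (95% interval 5.07 to 6.07), at 7.90 and 43.8 RPKM. Gadd45a, a stress gene that slows the passage into mitosis, was 2.88-fold higher, at 7.38 and 21.3 RPKM. Other genes of the group had lower values, among them the inhibitor gene Cdkn2c, at 4.51 and 2.71 RPKM, and the antiproliferative gene Btg2, at 16.3 and 8.87 RPKM, 1.83-fold lower. Cdkn2b, a further inhibitor gene, was at 39.1 and 40.8 RPKM, and Cdkn2c, Btg2 and Cdkn2b were named after their values were seen. Cdkn1a, which encodes the inhibitor p21, was at 90.6 RPKM in Yap+/-, 64.8 RPKM in Yap-/-, 51.8 RPKM in uninduced YapTg and 87.8 RPKM in induced YapTg organoids. It was 1.4-fold lower without Yap (95% interval 1.36 to 1.44) and 1.69-fold higher with induction (95% interval 1.64 to 1.75), so the 2 libraries with the highest Cdkn1a were Yap+/- and induced YapTg.

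In the group of G1 entry and E2F factors, 9 of 18 genes were higher and 9 lower with induction, against 54.5% lower over all genes. Tfdp2, a dimer partner of E2F factors, was at 7.94 and 4.37 RPKM, 1.81-fold lower. Mycn, the gene of the transcription factor N-Myc, was at 0.554 and 1.67 RPKM, 3.01-fold higher (95% interval 2.14 to 4.30) but near the floor. Over all genes 65.5% were higher with loss of Yap, with a median of 0.05. Of the further lists, 36 of 45 genes of origin firing and DNA synthesis and 15 of 18 of G1 entry were higher. Their medians were 0.09 and 0.07, close to that of all genes. Between the reference libraries, 65.6% of all genes were lower in Yap+/- (median -0.11). There 45 of 45 genes of origin firing and 41 of 42 of G2 and mitosis were lower, with medians of -0.38 and -0.47. Pole, the catalytic subunit of DNA polymerase epsilon, had 2.02 RPKM in the Yap+/- and 5.31 RPKM in the uninduced YapTg library. It was the 1 gene of these lists past 2-fold there on the log2(RPKM + 1) scale. Of all genes, 0.726% were lower by as much. Espl1, the gene of separase, was at 3.23 and 6.71 RPKM, 2.08-fold lower in Yap+/- by the RPKM ratio (95% interval 1.89 to 2.29). The group of kinase inhibitors and cell cycle exit had the other sign there, with a median of 0.23 and 9 of 14 genes higher in Yap+/-. Its inhibitor genes at the floor were split, with Cdkn1a and Cdkn1c higher and Cdkn2b and Cdkn2c lower in Yap+/-.

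**Figure D4:**
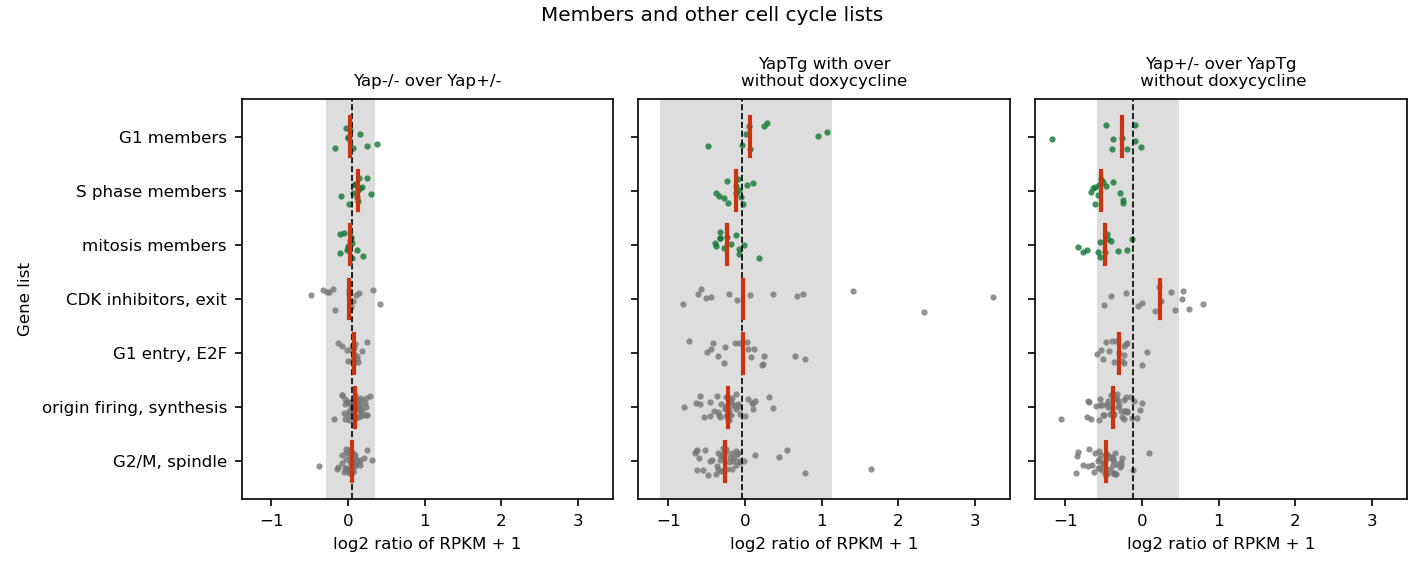
Log2 ratio of RPKM plus 1 for each gene of the 3 member groups (green) and of 4 further cell cycle lists (grey points), 1 panel per comparison, with red bars at list medians, a dashed line at the median of all genes and a grey band from the 5th to the 95th percentile of all genes. With induction the highest points of the further lists are Cdkn1c and Klf4 of the list of inhibitors and cell cycle exit, followed by Anln. The S phase and mitosis medians lie left of the dashed line in the right panel, at -0.54 and -0.48.

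Marker levels of crypt and villus cells also differed in these comparisons. Of 8 crypt base stem cell markers at the floor, 8 were higher in Yap-/- than in Yap+/- organoids (median log2 ratio 0.35), 8 lower with induction (-1.45) and 8 lower in Yap+/- than in uninduced YapTg organoids (-0.68). The summed level of the 9 listed stem cell markers was 347 RPKM in Yap+/-, 630 RPKM in Yap-/-, 583 RPKM in uninduced YapTg and 82.3 RPKM in induced YapTg organoids. Olfm4 alone made up 244, 501, 424 and 22.0 RPKM of these sums. Of 8 enterocyte markers, 5 were higher without Yap (median 0.34), 8 lower with induction (-1.88) and 6 higher in Yap+/- than in uninduced YapTg organoids (0.81). Of the 9 epithelial markers, 3 were at least 2-fold higher with induction, Krt18 (5.18-fold), Krt19 (2.97-fold) and Krt8 (2.95-fold), and Cdx1 was 2.13-fold lower. The part of these marker differences in the cell cycle values was not tested.

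The genes whose pattern over the 4 libraries lay nearest to that of Ccnd1, by distance between centred log2(RPKM + 1) values among 7168 genes with a mean of 5 RPKM or more, were Kdm3b (distance 0.0492), Mllt4 (0.0704), Impdh1 (0.0765), a septin gene with the current symbol Sept11 (0.0969) and Hspa5 (0.105). Kdm3b, a histone demethylase gene, was at 7.56 RPKM in Yap+/-, 6.91 RPKM in Yap-/-, 10.2 RPKM in uninduced YapTg and 23.4 RPKM in induced YapTg organoids. Hspa5, the gene of the endoplasmic reticulum chaperone BiP, was at 194, 162, 244 and 484 RPKM. Each of these genes had its lowest level in the Yap-/- and its highest in the induced library, and with 4 libraries many genes can share an order.

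Some values carry less certainty than their intervals show. How reads with several matches were counted is not given in the sources used here, and the mouse gene tables name copies of Ccnd3, Pcna, Tyms, Ccnb1 and Aurkb, which could share reads with them.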

How the data were processed

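RNA-seq of 4 organoid cultures, 1 per group, gave 1 table of 22632 genes. Per the labels, total RNA was purified on Qiagen columns and libraries were made with an Illumina TruSeq kit. Reads were processed with CASAVA 1.8, FastQC and TopHat 1.4.1, with mm9 as the genome build, per the submitters' processing notes. The counter, annotation and filters were not given in the sources used here. As no header names a unit, the deposited values were taken as RPKM from the numbers themselves, and 0 value columns were left unused.

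Groups came from genotype and title. The 35 genes, the further lists and the promoter motifs were chosen with earlier results of these data known. Library totals and whole reads (within 0.03) were recovered from the RPKM and GENCODE M21 gene lengths. 15 of the 35 genes had that length and 20 another one, so the read numbers of the 20 are less certain. A multiple of the true length also gives whole reads, so these numbers can be too high and the intervals too narrow. Of 3111 values of 1 to 5 reads, 68.5% were even, against 49.9% of 6177 values of 100 to 1000 reads, so pairs appear to be counted as 2 reads, and reads were divided by 2 before exact conditional binomial (Clopper-Pearson) 95% intervals were computed. Log2 ratios were taken on RPKM plus 1. Counts of genes past a fold, 2-fold in the main call, are on that scale, with 1 RPKM or more in the higher library, and folds in the text are RPKM ratios without the pseudocount. All 35 genes could be named. Of the further lists, the genes past 2-fold and the 2 farthest from 0 in each comparison could be named. As alternatives, pseudocounts of 0.1 and 5, floors of 0 and 5 RPKM, median-ratio and upper-quartile scaling and a 1.5-fold threshold were tried. The calls and intervals were tried on simulated data with counting error only, which hold no PCR copies and no spread between cultures. Python 3.11.15, pandas 2.3.3, scipy 1.17.1 and matplotlib 3.10.9 were used. Promoters are from RefSeq (GRCm38.p6), another build than the values.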

Additional observations from a re-analysis of the deposited data

How the results depend on the processing

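With 1 library per group, no replicate could be left out, and no paired analysis was possible because no group has a second sample. The count of genes 2-fold apart was 0 for Yap-/- over Yap+/- under every alternative run. With induction the count of 1 (Ccnd1) became 2 with a pseudocount of 0.1 and with a 1.5-fold threshold, in both cases by Cdk6, and 0 with a pseudocount of 5. For Yap+/- over uninduced YapTg the count of 1 (Cdk6) became 0 with a pseudocount of 5 and 8 with a 1.5-fold threshold. The median log2 ratio of -0.47 in that pair moved to -0.354 with a pseudocount of 5, -0.347 with median-ratio and -0.362 with upper-quartile scaling. Those scalings shifted the median of all genes there from -0.11 to near 0. The other counts and medians stayed within 1.5 times or within their counting error. Single genes changed sign under scaling only: 6 for Yap-/- over Yap+/-, 3 with induction and 3 for Yap+/- over uninduced YapTg with median-ratio scaling, and 3, 0 and 3 with upper-quartile scaling. Depth limits these genes little, but the spread between cultures is unknown.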
